A study of Rattus norvegicus with 12 samples.

Results

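Enrichment set I is 1 of 3 separate preparations of gonadotrope-enriched rat pituitary cells in this series, and its response to gonadotropin-releasing hormone (GnRH) was measured on 4 of the 12 arrays. These 4 were chosen by their source label alone. GnRH 1 and GnRH 2 hold RNA from cells given 10 nM GnRH for 40 min, and vehicle 1 and vehicle 2 hold RNA from cells given an equal volume of vehicle medium for the same time. All 4 samples share their origin: anterior pituitaries of adult female Sprague-Dawley rats, ovariectomised 2 weeks earlier and pooled from 13 to 15 animals. The cells were dispersed with trypsin and separated by size, and the pool of large cells, about 6% of those recovered, was cultured to day 3 in medium with E2 (estradiol) and steroid-stripped serum. Per the labels, LH-positive cells made up 40 to 60% of that pool and under 7% of unseparated cells. Up to 60% of the RNA source was thus not LH-positive at the low end of that range, and in bulk RNA fewer cells of a type and less RNA per cell cannot be told apart. The labels call the samples biological replicates but do not say whether the wells of 1 preparation were separate cultures, so the errors below measure the spread between these samples, which may be technical.

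GnRH is the hypothalamic peptide that drives gonadotropes, the pituitary cells that secrete luteinizing hormone (LH) and follicle-stimulating hormone. Its receptor couples to Gq, phospholipase C, calcium and protein kinase C, and from there to the MAPK cascades. Immediate early genes are the targets that are transcribed first after such a signal, without new protein synthesis; several of them encode transcription factors of the AP-1, EGR and NR4A families, and Lhb transcription is known to depend on EGR1.

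Expression was read as probe set signals, intensities on a linear scale that had been scaled to a common level per array. Differences are given as GnRH minus vehicle on the log2(signal + 16) scale with n = 2 arrays per group, and they understate the change of dim genes. Of 31042 probe sets that are not array controls, 18625 passed a filter on low signal and were tested, and they covered 10585 genes. Levels are compared only within a probe set, since probe sets differ in brightness.

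The 4 arrays of set I resembled each other more than those of the other preparations did. Their pairwise correlations over the tested probe sets ran from 0.915 to 0.957, against 0.463 to 0.709 in set II and 0.670 to 0.764 in set III. The hybridisation controls also differed between sets. Their geometric means ran from 7634 to 11705 in set I, 73517 to 320024 in set II and 2264 to 162420 in set III. The part of such array differences in the comparison of sets was not tested. The lowest of the 6 values in set I belonged to the vehicle pair, and the pairs of unlike agent ran from 0.929 to 0.945. The vehicle arrays differed from each other by a median of 0.39 on the log2 scale and by more than 1.50-fold at 32.4% of probe sets. The GnRH arrays differed by a median of 0.25 and by more than 1.50-fold at 15.4%. Vehicle 2 stood apart most often: it lay 1.50-fold or more above the other 3 arrays at 802 probe sets and below them at 994, against 119 and 339 for GnRH 1. The ratio of 3′ to 5′ signal reflects how complete the amplified RNA was. For Gapdh it measured 30.8 in vehicle 1, 43.7 in vehicle 2, 24.5 in GnRH 1 and 22.3 in GnRH 2. For Actb the agents were ordered otherwise, with 17.8, 20.5, 19.2 and 28.3 on the same arrays. The part of either ratio in the differences below was not tested.

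**Figure D1:**
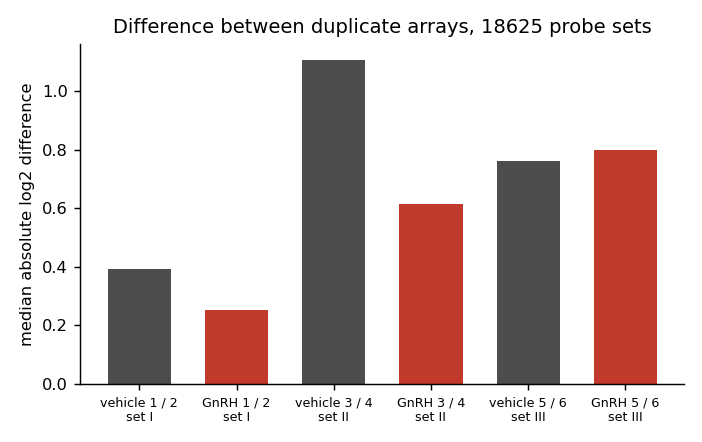
Median absolute log2 difference between the duplicate arrays of each agent and enrichment set, over the tested probe sets; grey bars are vehicle pairs and red bars GnRH pairs. The duplicates of set I differ by 0.39 (vehicle) and 0.25 (GnRH), less than any pair of sets II and III.

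By limma with Benjamini-Hochberg adjustment, 0 of 18625 probe sets (0%) passed an adjusted p of 0.05 as higher and 0 (0%) as lower. Without adjustment, 668 probe sets (3.59%) lay below a p of 0.05 and divided into 322 (1.73%) higher and 346 (1.86%) lower with GnRH. If no probe set differed, a p under 0.05 would be met at a share of about 0.05, above the share seen. An exact permutation test of 2 arrays against 2 cannot go below p = 0.333, so single genes are described here by their values, the overlap of the groups and the limma estimate. Both GnRH arrays lay above both vehicle arrays at 3089 probe sets (16.6%) and below both at 2884 (15.5%). If the agent labels carried no information, non-overlap in either direction would be met at a share of 0.333, which these shares together do not exceed. With a fold of at least 1.50 as well, these numbers were 743 (3.99%) and 776 (4.17%). The study's own rule, a fold of at least 1.50 with at least 50% of the GnRH-vehicle pairs reaching it, marked 957 probe sets (5.14%) as higher and 1015 (5.45%) as lower. The numbers marked in each direction were thus nearly equal.

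The count of adjusted calls turned on the vehicle arrays. Without vehicle 1 limma called 342 probe sets, 168 higher and 174 lower, and without vehicle 2 it called 274, 171 higher and 103 lower. In these fits the lone vehicle array is assumed to vary like the GnRH pair, whose duplicates differed less. Without GnRH 1 or without GnRH 2, 0 probe sets were called. Only 16 probe sets were called with the same sign in both vehicle omissions, 4.68% of the 342 and 5.84% of the 274. They include Fosb, Egr2, Rps15a, Tmsb4x, Nefl, Galnt1 and Ganab as higher, and Slc66a1, Ercc2, Babam2 and Lmbr1l as lower.

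Fosb, whose product pairs with JUN proteins to form AP-1, had the largest difference among the immediate early genes tested. Its signal was 476 and 342 in vehicle 1 and 2 and 2128 and 1359 in GnRH 1 and 2. The groups did not overlap, and the ratio was 4.09-fold (95% confidence interval 2.49 to 6.73). The log2 difference of 2.03 ± 0.32 (SE; limma adjusted p = 0.673) ranged from 1.71 to 2.35 over the 13 alternatives run for it. Without vehicle 1 it was 2.26 (limma adjusted p = 0.00640) and without vehicle 2 it was 1.80 (limma adjusted p = 0.00223).

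Nr4a3, an orphan nuclear receptor gene, gave 376 and 413 with vehicle and 831 and 800 with GnRH. The duplicates of each agent lay close together and the groups were well apart, with a log2 difference of 1.02 ± 0.26 (SE; limma adjusted p = 0.999). A pair of further tested probe sets of Nr4a3 were also higher on both GnRH arrays, with log2 differences of 1.50 and 1.30. The latter read 112 and 43.3 with vehicle, below the filter signal of about 120, so it was tested only through its GnRH arrays. Its relative Nr4a1 read 575 and 725 with vehicle and 1042 and 1290 with GnRH, a log2 difference of 0.83 ± 0.27 (SE). Nr4a2 read 354 and 177 against 436 and 363, where vehicle 1 and GnRH 2 almost met.

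Among the EGR zinc-finger genes, Egr2 read 1249 and 786 with vehicle and 2497 and 2397 with GnRH. Both GnRH arrays were far above both vehicle arrays, and the log2 difference was 1.29 ± 0.29 (SE; limma adjusted p = 0.999). Without vehicle 1 it was 1.62 (limma adjusted p = 0.00818) and without vehicle 2 it was 0.96 (limma adjusted p = 0.0363). Egr1 was bright on all 4 arrays, with 11469 and 12016 against 14531 and 14887. The groups did not overlap, but the difference of 0.32 ± 0.24 (SE) was small. Fos, the founding AP-1 gene, read 8233 and 3895 with vehicle and 8258 and 9317 with GnRH. Vehicle 1 and GnRH 1 were nearly equal there, and its log2 difference of 0.63 ran from 0.09 without vehicle 2 to 1.17 without vehicle 1 (limma adjusted p = 0.0251 without vehicle 1). Jun, with 1505 and 1669 against 1727 and 1307, and Junb, with 404 and 695 against 494 and 726, overlapped between agents.

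Further early factors were higher on both GnRH arrays. Atf3, a stress-responsive bZIP repressor, read 642 and 540 with vehicle and 1064 and 1032 with GnRH (log2 0.82 ± 0.26, SE). Klf6, a Kruppel-like factor, read 1194 and 1221 against 2337 and 1846 (log2 0.78 ± 0.26, SE), although its other tested probe sets overlapped between agents, with 0.53 and -0.16. Crem, whose short isoforms repress cAMP-driven transcription, read 799 and 796 against 1049 and 1280 (log2 0.53 ± 0.26, SE). Klf11 and Klf10 differed by 0.81 and 0.35 and also did not overlap, but another tested probe set of Klf11 gave -0.25 with overlap.

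**Figure D2:**
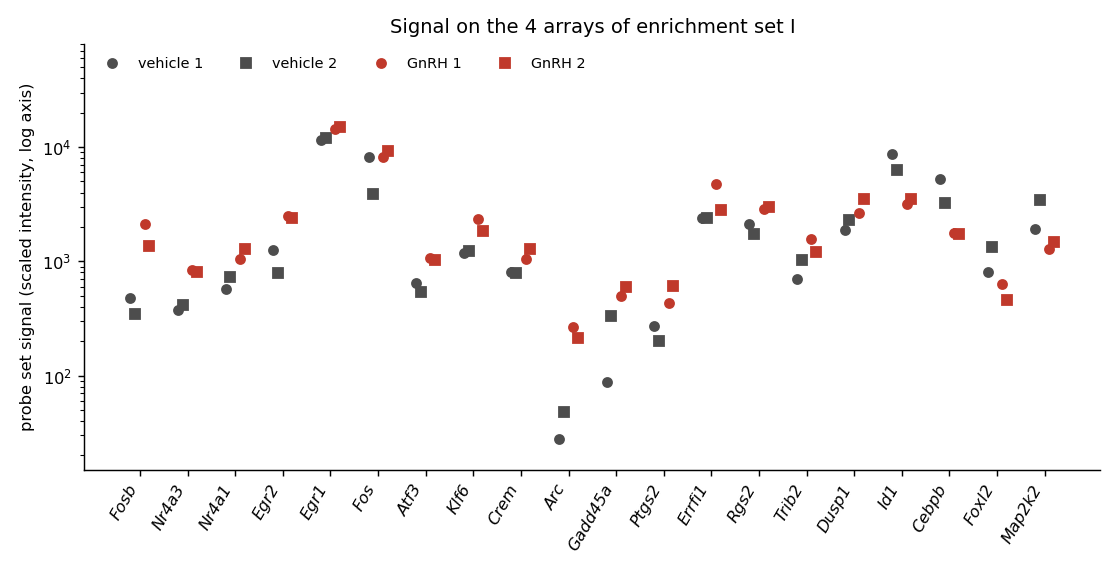
Probe set signal (log axis) of 20 genes on vehicle 1, vehicle 2 (grey), GnRH 1 and GnRH 2 (red) of enrichment set I. For Fosb, Nr4a3 and Egr2 both red points lie far above both grey points, for Id1 and Cebpb both lie below, and for Fos vehicle 1 (8233) and GnRH 1 (8258) nearly coincide. Arc was below the signal filter and was not tested.

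A pair of transcription factor genes of the same list were lower with GnRH. Id1, which encodes a helix-loop-helix protein without a DNA-binding domain that inhibits its partners, read 8777 and 6340 with vehicle and 3153 and 3495 with GnRH. It is a bright probe set, and the groups were separated by a log2 difference of -1.16 ± 0.27 (SE, limma adjusted p = 0.999). With each array left out, the difference ran from -1.40 (without vehicle 2) to -0.93. Cebpb, a bZIP factor gene, read 5246 and 3253 against 1770 and 1718, a log2 difference of -1.24 ± 0.29 (SE), and -1.58 without vehicle 2 (limma adjusted p = 0.00122).

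As a list, 29 of the 42 tested immediate early transcription factors were higher with GnRH by any amount, against 50.1% of all genes tested. Their median log2 difference was 0.17, beside 0.00 over all 10585 genes. Both GnRH arrays lay above both vehicle arrays in 15 of the 42, or 35.7%, where the share of all genes was 16.8%, and below both in 3, or 7.14%, where it was 16.4%. The study's rule marked 12 as higher (28.6%, beside 4.60% of all genes) and 2 as lower (4.76%, beside 5.05%). None of the 42 passed the adjusted limma test, and 6 higher and 2 lower had an unadjusted p under 0.05 (1.76% and 2.04% of all genes).

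Promoter windows of the early factors were searched for letters of known signal-responsive elements. The windows are from RefSeq (assembly GRCr8) and span 250 bases before to 50 after each gene's start, and 33 of the 42 tested factors had one. The CArG box, bound by serum response factor downstream of MAPK, was found in 4 of 33 (12.1%), against 1.64% of all 33469 windows. TGACG on either strand, the core of the cAMP response element that CREB binds, was in 20 of 33 (60.6%), against 21.2%. The full palindrome TGACGTCA, which contains that core, was in 2 of 33 (6.06%, against 1.83%), and the AP-1 site TGANTCA in 1 of 33 (3.03%, against 7.33%). Of the 11 factors with a window whose GnRH arrays both lay above the vehicle arrays, 3 had a CArG box (27.3%) and 6 had TGACG (54.5%); of the other 22, 1 (4.55%) and 14 (63.6%) did. These matches describe the letters and do not show a working site. The 3 windows below belong to factors that were higher on both GnRH arrays, and they show the kinds of match found; capitals mark a CArG box or TGACG, which reads CGTCA on the strand shown. The Egr2 window is chr20:21054392-21054691 (minus strand) with both kinds, Nr4a1 is chr7:134259888-134260187 (plus strand) with 4 TGACG, and Klf6 is chr17:69458429-69458728 (minus strand) with 1 CArG box.
Egr2: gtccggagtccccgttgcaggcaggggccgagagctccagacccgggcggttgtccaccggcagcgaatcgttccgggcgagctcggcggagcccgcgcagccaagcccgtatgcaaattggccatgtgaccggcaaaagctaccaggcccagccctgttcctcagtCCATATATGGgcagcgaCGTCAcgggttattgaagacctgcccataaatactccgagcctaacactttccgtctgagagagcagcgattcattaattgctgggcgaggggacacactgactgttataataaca
Nr4a1: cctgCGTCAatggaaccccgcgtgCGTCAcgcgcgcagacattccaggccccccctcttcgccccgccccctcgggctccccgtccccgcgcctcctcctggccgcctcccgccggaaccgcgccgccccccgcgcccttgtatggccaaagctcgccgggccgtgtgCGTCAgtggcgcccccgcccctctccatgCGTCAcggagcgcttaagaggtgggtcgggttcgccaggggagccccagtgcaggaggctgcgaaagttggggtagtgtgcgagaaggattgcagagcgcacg
Klf6: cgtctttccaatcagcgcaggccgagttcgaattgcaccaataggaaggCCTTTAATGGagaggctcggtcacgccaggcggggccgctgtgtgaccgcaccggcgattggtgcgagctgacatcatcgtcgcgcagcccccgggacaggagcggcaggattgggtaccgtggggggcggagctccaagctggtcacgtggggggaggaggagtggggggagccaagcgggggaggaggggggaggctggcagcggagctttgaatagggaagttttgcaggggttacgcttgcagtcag
The CArG box of Egr2 lies at -83 to -74 from the gene's start and the TGACG at -66 to -62, so the pair falls within the same short stretch. The 4 TGACG of Nr4a1 start at -246, -226, -82 and -53, and the CArG box of Klf6 lies at -201 to -192. The windows of Fosb and Id1 held none of the letters searched.

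Other immediate early genes, which encode enzymes, cytokines and RNA-binding proteins, were also mostly higher. Of 37 tested, 27 were higher and the median was 0.26. Without overlap, 14 were higher (37.8%, beside 16.8% of all genes) and 2 lower (5.41%, beside 16.4%). Ptgs2, the inducible prostaglandin synthase, read 270 and 199 with vehicle and 432 and 607 with GnRH (log2 1.09 ± 0.31, SE). Gadd45a, a stress and growth-arrest gene, read 87.2 and 332 against 501 and 595. The vehicle values of Gadd45a lay far apart, and its log2 difference of 1.57 became 0.69 without vehicle 1 and 2.45 without vehicle 2 (limma adjusted p = 0.00122 without vehicle 2). Arc, an activity-regulated cytoskeletal gene, was below the signal filter, with 28.1 and 47.4 against 266 and 214. With no filter its log2 difference was 2.27 ± 0.52 (SE; limma adjusted p = 0.995), and its vehicle signals lay near those of the bacterial control probe sets, whose geometric means were 14.8 to 22.4 on these arrays. Ier5 differed by 0.57, Zfp36, which encodes an mRNA-destabilising protein, by 0.46 and the survival gene Mcl1 by 0.41, each without overlap.

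Feedback regulators, which signalling induces and which damp it, were mostly higher as well. Of 23 tested MAPK and G-protein regulators 17 were higher, with a median of 0.25. Without overlap, 10 were higher (43.5%, beside 16.8% of all genes) and 2 lower (8.70%, beside 16.4%). Trib2, a pseudokinase gene, read 704 and 1035 with vehicle and 1558 and 1218 with GnRH (log2 0.68 ± 0.29, SE); its other tested probe set gave -0.28. Errfi1, an inhibitor of the epidermal growth factor receptor, read 2417 and 2392 against 4777 and 2842 (log2 0.61 ± 0.30, SE). The spread of Errfi1 came from the GnRH arrays, and without GnRH 1 the difference was 0.24 and without GnRH 2 it was 0.99. Rgs2, which limits Gq signalling, read 2137 and 1741 against 2847 and 2990 (log2 0.59 ± 0.25, SE). The MAPK phosphatase genes Dusp1 and Dusp6 differed by 0.56 and 0.45, and Spry2, a receptor tyrosine kinase inhibitor, by 0.52, all 3 without overlap. Other tested probe sets of Dusp6 gave 0.48 without overlap and 0.094 with overlap.

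Genes known as cAMP and CREB targets, several of which are early genes already described, had 16 of 22 higher and a median of 0.26. In 11 (50.0%, beside 16.8% of all genes) both GnRH arrays lay above both vehicle arrays and in 1 (4.55%, beside 16.4%) below. The study's rule marked 8 as higher (36.4%, beside 4.60%) and 0 as lower (beside 5.05%). Outside the early lists, Scg2, a granin precursor abundant in gonadotrope granules, read 11877 and 12126 with vehicle and 15908 and 25600 with GnRH. Both GnRH arrays were above vehicle, GnRH 2 by far the most, and the log2 difference was 0.75 ± 0.29 (SE; 0.41 without GnRH 2). Penk, the enkephalin precursor, read 6878 and 13479 against 14551 and 14545, so that vehicle 1 was the array apart.

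Of 31 tested components of the GnRH receptor pathway, 12 were higher and 19 lower, with a median of -0.14. The groups were without overlap in 4 higher (12.9%, beside 16.8% of all genes) and 8 lower (25.8%, beside 16.4%). In vehicle 2, 13 of the 31 were highest, beside 30.8% of all probe sets tested. The median was -0.012 without vehicle 2 and -0.15 without vehicle 1. Without GnRH 1 it was -0.078 and without GnRH 2 it was -0.069. Map2k2, a MAPK kinase gene, read 1917 and 3428 with vehicle and 1278 and 1473 with GnRH (log2 -0.89 ± 0.32, SE). Without vehicle 1 the difference was -1.31 (limma adjusted p = 0.0158) and without vehicle 2 it was -0.48. Its relative Map2k1 was higher, with 1029 and 1193 against 1612 and 1595 (log2 0.53 ± 0.25, SE). Gnai2, an inhibitory G-protein subunit gene, read 2605 and 5123 against 2440 and 2174, where vehicle 2 alone was far off. Its difference of -0.66 was -0.18 without vehicle 2 and -1.15 without vehicle 1 (limma adjusted p = 0.0238). Mapk14, the p38 kinase gene, differed by -0.49 and Gna11, a Gq-family subunit gene, by -0.39. The calcium sensor gene Calm2 differed by 0.31.

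The gonadotropin subunit and GnRH receptor genes differed by less than 1.50-fold. Of 16 gonadotrope markers, the study's rule marked 2 higher and 2 lower (12.5% each, beside 4.60% and 5.05%). Without overlap, 7 were higher (43.8%, beside 16.8% of all genes) and 2 lower (12.5%, beside 16.4%), with a median of 0.17. In vehicle 1, 11 of the 16 were lowest, beside 27.9% of all probe sets. Cga, the common glycoprotein hormone subunit, read 43179 and 61076 with vehicle and 47726 and 66081 with GnRH, and Lhb read 19573 and 29260 against 21368 and 32012. In both genes the arrays numbered 2 were brighter than those numbered 1, the agents overlapped, and the log2 differences of 0.13 ± 0.29 and 0.13 ± 0.31 (SE) were below the spread. Fshb, with 393 and 559 against 587 and 583 (log2 0.31), and Gnrhr, with 390 and 291 against 469 and 431 (log2 0.40), did not overlap but differed by less than 1.50-fold. A dimmer tested probe set of Fshb gave -0.041 with overlap. Foxl2, a forkhead factor gene of gonadotropes, read 805 and 1325 with vehicle and 629 and 455 with GnRH. It was lower on both GnRH arrays, with a log2 difference of -0.93 ± 0.32 (SE). Without vehicle 1 it was -1.28 (limma adjusted p = 0.0356) and without vehicle 2 it was -0.58. Nr5a1, which encodes SF1, overlapped, with 221 and 500 against 319 and 239.

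The series title names Rap1b, a RAS-like GTPase gene. It read 4516 and 3348 with vehicle and 5425 and 5253 with GnRH. Both GnRH arrays were above both vehicle arrays. The ratio of 1.37-fold (interval 0.905 to 2.08; log2 0.46 ± 0.26, SE; limma adjusted p = 0.999) was under the study's fold of 1.50 in this preparation. Because the study named Rap1b from these samples, its direction is not independent evidence. Of the 26 tested Rap and Ras GTPases and regulators 16 were higher, with a median of 0.12. Without overlap, 8 were higher (30.8%, beside 16.8% of all genes) and 3 lower (11.5%, beside 16.4%). The study's rule marked 0 in either direction, beside 4.60% and 5.05% of all genes. The members above vehicle on both arrays include Rap1a (0.47), Cdc42 (0.49), Rac1 (0.57), Rras2 (0.51) and the exchange factor gene Rapgef2 (0.51). Other tested probe sets of Cdc42 gave 0.78 and, with overlap, 0.018, and another of Rac1 gave -0.26, lower without overlap. The second probe sets of Rap1a (0.15) and Rras2 (0.066) overlapped between agents.

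**Figure D3:**
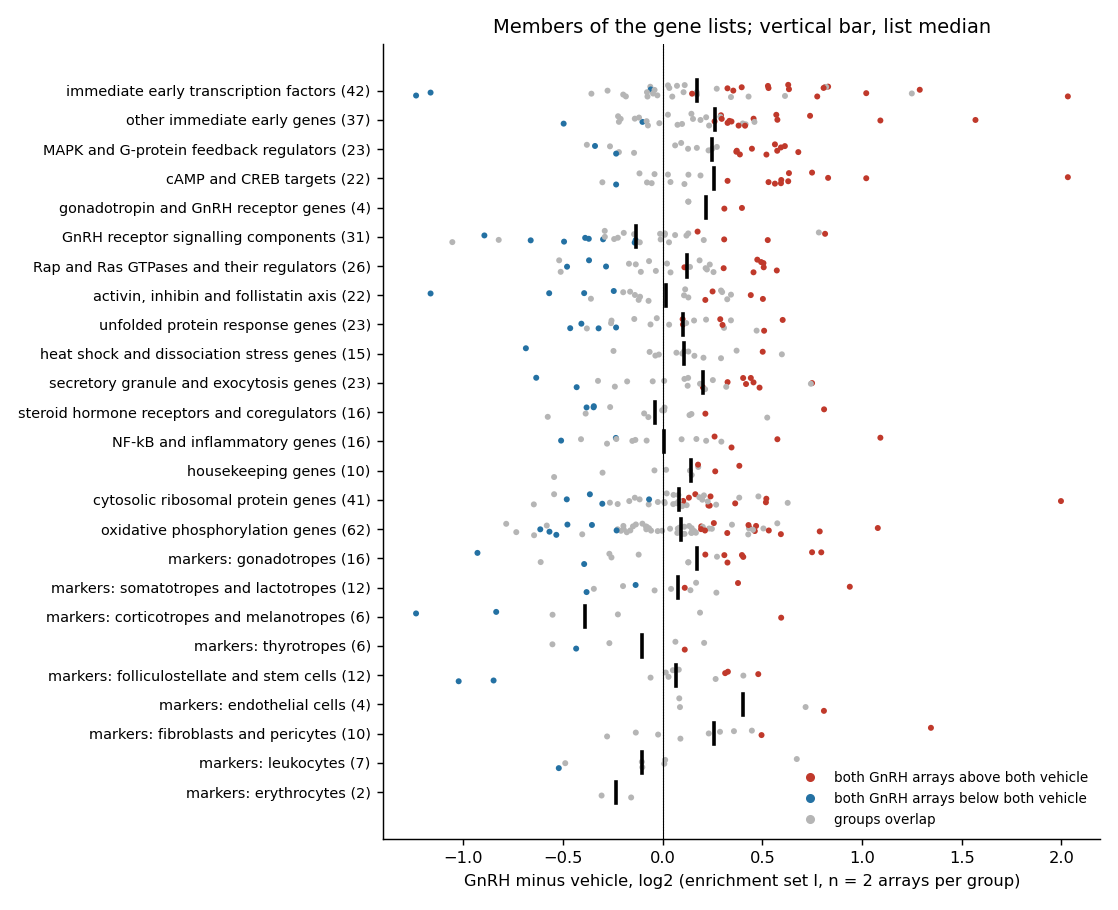
GnRH minus vehicle log2 difference of every tested member of the 25 gene lists (number tested in brackets); red points have both GnRH arrays above both vehicle arrays, blue points both below, grey points overlap, and black bars are list medians. The early gene, feedback and cAMP target lists have medians of 0.17 to 0.26, the GnRH receptor signalling components -0.14, and all genes 0.00. Several other lists lie within or above that range. Endothelial markers have 0.40, fibroblast and pericyte markers 0.26, gonadotropin and GnRH receptor genes 0.22, and secretory granule genes 0.20. The lowest median is -0.39, for corticotrope and melanotrope markers.

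Secretory granule and exocytosis genes had 17 of 23 higher and a median of 0.20. Without overlap, 8 were higher (34.8%, beside 16.8% of all genes) and 2 lower (8.70%, beside 16.4%). Syt4, a vesicle calcium-sensor family gene, differed by 0.46, while the vesicle GTPase genes Rab3d and Rab3a differed by -0.63 and -0.43. Of 23 unfolded protein response genes 13 were higher, 6 without overlap (26.1%, beside 16.8% of all genes) and 4 lower without overlap (17.4%, beside 16.4%), with a median of 0.10. The endoplasmic reticulum chaperone genes Hsp90b1 and Hspa5 differed by 0.60 and 0.51. Sdf2l1, Syvn1 and Xbp1 of the same response differed by -0.46, -0.41 and -0.32, also without overlap. Heat shock and dissociation stress genes had a median of 0.11 and overlapped except for Hspa4 (-0.69) and Dnaja1 (0.50). That is 6.67% in each direction, beside 16.8% higher and 16.4% lower of all genes. Another tested probe set of Dnaja1 gave 0.0071 with overlap.

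The activin, inhibin and follistatin axis had 11 of 22 higher and a median of 0.02. In each direction 4 were without overlap (18.2%), near the 16.8% higher and 16.4% lower of all genes. Its lower members include Id1, a known target of BMP receptors, and the receptor gene Bmpr2 (-0.57). Its higher members include the receptor gene Tgfbr1 (0.50). Steroid receptor and coregulator genes had a median of -0.04 over 16, and NF-kB and inflammatory genes 0.01 over 16. The 41 ribosomal protein genes, 62 oxidative phosphorylation genes and 10 housekeeping genes had medians of 0.08, 0.09 and 0.14.

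The 12 higher and 12 lower genes with the smallest p included Fosb, Egr2, Nr4a3 and Id1 of the early transcription factors and Rps15a of the ribosomal list, and the others were in none of the lists. Rps15a, a ribosomal protein gene, read 2894 and 1994 with vehicle and 9442 and 9844 with GnRH. Its log2 difference was 1.998 ± 0.27 (SE; limma adjusted p = 0.355), 2.26 without vehicle 1 (limma adjusted p = 0.00226) and 1.73 without vehicle 2 (limma adjusted p = 0.000811). The other 40 ribosomal protein genes tested lay between -0.65 (Rpl14) and 0.63 (Rps16), so Rps15a stood alone in its list. Tmsb4x, which encodes an actin-sequestering thymosin, read 2383 and 2639 against 5022 and 5320 (log2 1.04 ± 0.25, SE). The others highest by p were Galnt1, a mucin-type glycosyltransferase gene (1.38), Nefl, a neurofilament gene (1.30), the glucosidase gene Ganab (1.33), Tead4 (1.79), Mpdz (1.07), Fbxo5 (1.30) and Hycc2 (1.05), beside Fosb, Egr2 and Nr4a3. Tead4 was dim, with 52.4 and 65.3 against 233 and 250. Its vehicle signals lay below the filter signal of about 120, so it was tested only through its GnRH arrays. Other tested probe sets of Galnt1 and Hycc2 gave -0.28 and -0.11. Nefl had a second probe set that was higher by 0.55 without overlap.

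Among the lower genes, Slc66a1, a lysosomal amino acid transporter gene, read 1303 and 1653 with vehicle and 469 and 476 with GnRH. Its log2 difference was -1.60 ± 0.27 (SE; limma adjusted p = 0.851), and a dimmer tested probe set of it gave 0.10 with overlap. Ercc2, a DNA repair and transcription helicase gene, read 950 and 846 against 290 and 350 (log2 -1.45 ± 0.27, SE). The deepest differences came from dimmer probe sets: Rdh11 with 263 and 407 against 75.8 and 37.3 (log2 -2.30 ± 0.46, SE), Ttll3 (-2.15), Mgll (-2.05), Mtnap1 (-2.04) and Zfp703 (-2.03). The GnRH signals of Rdh11 lay below the filter signal of about 120, so it was tested only through its vehicle arrays. Rdh11 stayed in the test in 10 of the alternatives and Ttll3 in 9, against 13 for Fosb. Another tested probe set of Mgll gave 0.62. Thsd4, Babam2, Lmbr1l, Rab5c and Id1 completed the 12 lowest by p, and another tested probe set of Babam2 gave 0.024 with overlap. The smallest p of all, with a limma adjusted p of 0.108, belonged to a probe set without a gene symbol, with 41.1 and 64.6 against 788 and 656 (log2 3.44 ± 0.35, SE). Both vehicle signals of this probe set lay below the filter signal of about 120, so it was tested only through its GnRH arrays.

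**Figure D4:**
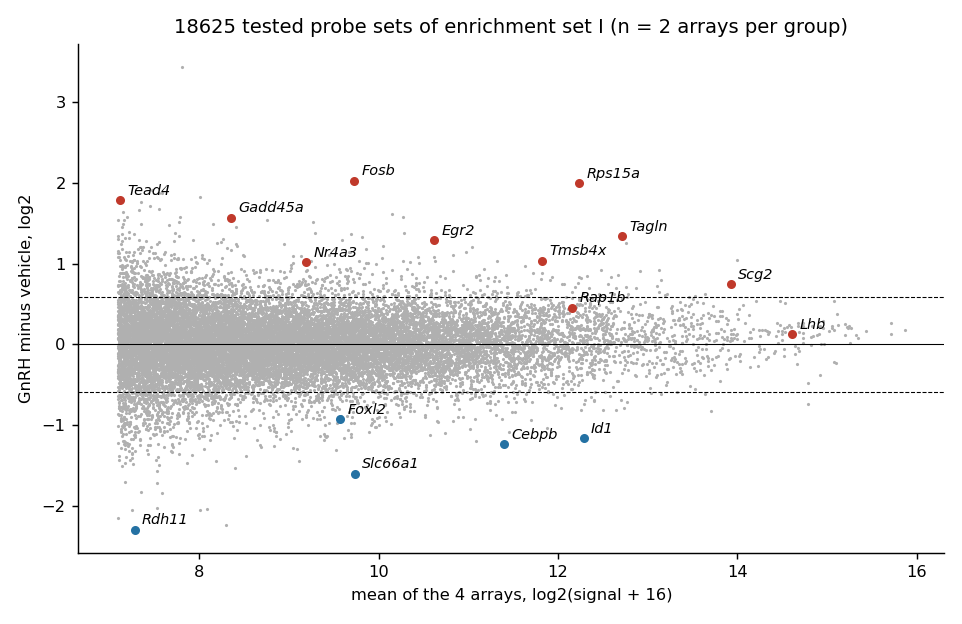
GnRH minus vehicle log2 difference against the mean log2(signal + 16) of the 4 set I arrays for the 18625 tested probe sets, with named genes in red (higher) and blue (lower) and dashed lines at 1.50-fold. Fosb (2.03), Rps15a (1.998), Id1 (-1.16) and Cebpb (-1.24) lie outside the cloud at their signal, whereas Rap1b (0.46) and Lhb (0.13) lie inside the dashed lines.

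Markers of other cell types were read beside these results. Of 10 tested fibroblast and pericyte markers 7 were higher, beside 50.1% of all genes. Without overlap, 2 were higher (20.0%, beside 16.8% of all genes) and 0 lower (beside 16.4%). Their summed signal was 15511 and 23386 with vehicle and 29790 and 28905 with GnRH. Tagln, a smooth muscle actin-binding gene, made much of that, with 2576 and 6850 against 12156 and 9422 (log2 1.35 ± 0.42, SE). Without vehicle 1 its difference was 0.64, and without vehicle 2 it was 2.05 (limma adjusted p = 0.000235). Col1a2 differed by 0.50 without overlap (another tested probe set of it by -0.04 with overlap), while Col1a1, Dcn and Acta2 overlapped. Of 6 corticotrope and melanotrope markers 4 were lower, with summed signals of 2913 and 3455 against 2848 and 2444. Without overlap, 2 were lower (33.3%, beside 16.4% of all genes) and 1 higher (16.7%, beside 16.8%). Pomc read 1139 and 1516 against 1175 and 674 with overlap, and Pdyn and Oacyl differed by -1.24 and -0.84 without overlap. Neurod1 of the same list was higher without overlap, by 0.59. Of 12 folliculostellate and stem cell markers 9 were higher, with sums of 13904 and 15262 against 16669 and 19252; Vim differed by 0.48, and Aldh1a2 and Fxyd1 by -1.02 and -0.85. For 12 somatotrope and lactotrope markers the sums overlapped, 83970 and 103303 against 96377 and 128674, as did those of 16 gonadotrope markers, 91246 and 122574 against 105489 and 144106. Prl read 32505 and 29746 against 34844 and 46853, and Gh1 overlapped. Thyrotrope (27929 and 14079 against 13932 and 15050) and leukocyte sums (1699 and 2123 against 1694 and 1832) overlapped, as did erythrocyte sums (3838 and 7437 against 4779 and 4754). Endothelial sums overlapped as well (954 and 1414 against 1377 and 1443). Only 4 of their 12 measured markers passed the filter, Pecam1 and Vwf being among those below it. All 4 were higher, 1 without overlap, with a median of 0.40. The study's rule marked 2 of them as higher (50%, beside 4.60% of all genes) and 0 as lower. Their mean log2 values did not overlap, 7.58 and 8.27 with vehicle against 8.39 and 8.31 with GnRH. All 4 were lowest in vehicle 1. The endothelial median was 0.086 without vehicle 1, -0.051 without GnRH 2 and -0.011 with no filter on low signal. No marker was listed at 0, and the part of these shifts in the other results was not tested.

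The same response in the other preparations was compared only to place set I. Each set has its own vehicle arrays. Across 10585 genes the log2 differences of set I correlated with those of set II at 0.085 and of set III at -0.020, a description over genes that are not independent. Of the 487 genes marked higher in set I by the study's rule, 58.1% were higher in set II and 49.1% in set III by any amount, beside 59.7% and 42.4% of all genes. Of the 535 marked lower, 56.1% and 55.9% were lower, beside 40.3% and 57.6%. The share thus exceeded that of all genes for the lower genes in set II and the higher genes in set III, and lay slightly below it in the remaining comparisons. Of 393 genes that were at least 1.50-fold higher in set I without overlap, 10 met the same rule in both other sets (2.54%, beside 1.22% of all genes), and of 424 lower genes 11 did (2.59%, beside 1.45%). The 10 were Fosb, Nr4a3, S100a10, Srxn1, Cox16, LOC102553902, Ccdc43, Errfi1, Mad2l1 and Kcnk9.

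Set by set in the order I, II and III, the difference of Fosb was 2.03, 3.01 and 1.84, that of Nr4a3 1.02, 1.21 and 1.06, and that of Egr2 1.29, 0.66 and 1.53. Id1 differed by -1.16, 0.43 and -0.05, and its signals in the other sets lay between 4768 and 8630 on every array, near the vehicle values of set I. Rps15a differed by 1.998, -0.39 and 0.40, and its vehicle values in set I were the lowest of the 12 arrays. A limma fit of all 12 arrays gave each probe set 1 variance over all sets, although duplicates differed more in sets II and III. In that fit the difference between the set I response and the mean response of sets II and III was tested. It passed an adjusted p of 0.05 at 0 of 18625 probe sets (0%) and an unadjusted p of 0.05 at 193 (1.04%; 399 without vehicle 3). The contrast was -1.35 ± 0.52 for Id1 (SE; limma unadjusted p = 0.0213, adjusted p = 1.00), 1.99 ± 0.62 for Rps15a (0.00661 and 1.00) and -2.78 ± 0.86 for Rdh11 (0.00649 and 1.00). The smallest unadjusted p belonged to Zbtb40, where set I differed by 0.21 and sets II and III by -3.15 and -2.08. No gene can therefore be called particular to set I.

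**Figure D5:**
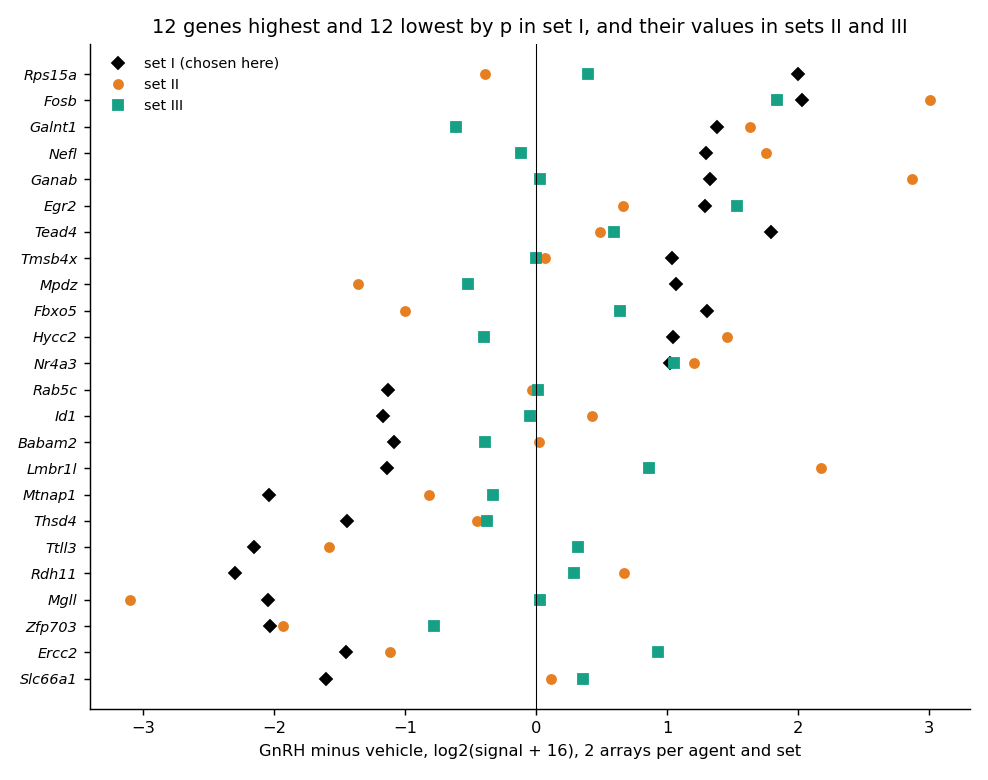
GnRH minus vehicle log2 difference in sets I (black), II (orange) and III (green), 2 arrays per agent and set, for the 12 higher and 12 lower genes with the smallest p in set I. The set I values chose the genes; Fosb, Egr2, Tead4, Nr4a3 and Ganab are higher in all 3 sets, Ganab by only 0.03 in set III, while Id1 is lower by 1.16 in set I and lies at 0.43 and -0.05 in the others.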

How the data were processed

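RNA of each sample was amplified in a 2-round T7 protocol and hybridised to an Affymetrix Rat 230 2.0 array, per the labels' protocols. The deposited values are linear signal intensities per probe set made with GCOS (submitters' processing notes). The software version was not given in the sources consulted. The deposited intensities of the set I arrays had trimmed means of 498 to 499; each array was rescaled to 500 (2% trimmed at each end). Gene symbols came from the platform annotation: of 31042 probe sets, 20826 had 1 symbol, 436 several and 9780 none. Probe sets below the 40th percentile of mean log2(signal + 16) in set I (a signal of about 120) were left out. The mean was taken over both agents, so a probe set dim under 1 agent could pass through the other. Groups were compared with limma 3.58.1 (lmFit, eBayes with trend) in R 4.3.3, with Benjamini-Hochberg adjustment over all tested probe sets. On simulated data of set I with 18625 probe sets, 83% of probe sets changed by 2 on the log2 scale were called and 9% of those changed by 1. The simulation changed 100 probe sets by each size and gave both groups the same normal spread. On the real arrays the vehicle duplicates differed more than the GnRH duplicates. There no probe set was called, Fosb and Rps15a with differences near 2 included, so the simulated shares need not hold. With 2 arrays per group, their number limits the precision.

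A gene was represented by its brightest tested probe set. Named genes were the 12 higher and 12 lower with the smallest p among those without overlap and with a fold of at least 1.50, up to 4 members of each of 25 lists by p, a hand-written list of genes, and the 6 with the smallest p against sets II and III. Some further genes and second probe sets were chosen after their values were seen. The members and lists were chosen with earlier results of these data known. Alternatives covered the pseudocount, filter, scaling, variance model, arrays fitted, replicate block and each array left out.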

Additional observations from a re-analysis of the deposited data

How the results depend on the processing

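With 2 arrays per group the counts depended on the arrays and the filter. With no filter on low signal the study's rule marked 3220 higher and 3338 lower, non-overlap with 1.50-fold 2166 and 2141, and an unadjusted p under 0.05 636 and 688. With the filter at the 60th percentile these were 452 and 456, 370 and 383, and 227 for the lower p count. A pseudocount of 64 left 626 higher by the study's rule, and the fit of all 12 arrays gave 14 higher and 15 lower at an unadjusted p under 0.05. Leaving out each array gave 1218 to 2026 higher and 1383 to 2139 lower by the study's rule, 1129 to 2021 and 1353 to 2081 by non-overlap with 1.50-fold, 91 to 1549 and 229 to 1430 by unadjusted p, and 0 to 171 and 0 to 174 by adjusted p. For the contrast with the other sets, leaving out vehicle 3 or vehicle 5 gave 240 to 399. The cause was not tested, beyond the numbers of probe sets and arrays that each alternative itself sets.

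List medians moved with no filter for the feedback regulators (0.17) and endothelial markers (-0.011). With the 60th percentile filter they were 0.43 for cAMP targets, 0.20 for Rap and Ras genes, -0.27 for thyrotrope and 0.32 for folliculostellate markers. Unfolded protein response genes had 0.076 under quantile normalization and 0.093 under median centring. With all probe sets of a gene averaged, other immediate early genes had 0.22 and thyrotrope markers -0.34. Leaving out each array, the medians ran from 0.17 to 0.24 for immediate early transcription factors, 0.21 to 0.28 for other immediate early genes, 0.21 to 0.37 for feedback regulators, 0.28 to 0.43 for cAMP targets, -0.15 to -0.012 for receptor signalling components and 0.025 to 0.13 for Rap and Ras genes. They ran from -0.15 to 0.23 for NF-kB genes, -0.044 to 0.12 for the activin axis, 0.033 to 0.19 for housekeeping and 0.026 to 0.10 for unfolded protein response genes. For markers they ran from -0.11 to 0.36 (gonadotropes), -0.039 to 0.15 (somatotropes and lactotropes), -0.67 to -0.037 (corticotropes and melanotropes), -0.16 to 0.12 (thyrotropes), 0.093 to 0.15 (folliculostellate), -0.051 to 0.75 (endothelial), 0.080 to 0.46 (fibroblasts) and -0.35 to 0.14 (leukocytes).

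Among the genes recomputed under each alternative, the sign turned for Cga under quantile normalization (-0.070). Without vehicle 1 it turned for Cga (-0.12), Lhb (-0.16), Junb (-0.21), Gh1 (-0.049) and Tshb (0.15), without vehicle 2 for Nr5a1 (0.30), and without GnRH 2 for Cga (-0.11), Lhb (-0.16), Junb (-0.10) and Jun (0.12). The ranges over left-out arrays were -0.12 to 0.38 for Cga, -0.16 to 0.42 for Lhb, -0.21 to 0.55 for Junb, -0.049 to 0.59 for Gh1, -1.26 to 0.15 for Tshb, -0.82 to 0.30 for Nr5a1 and -0.28 to 0.12 for Jun.

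Deviations of same-numbered arrays from their group means correlated at -0.04 over 18625 probe sets, so no common shift was seen across them. With 2 samples per group this cannot decide whether the numbers pair the samples. With the replicate number as a block, limma called 4 probe sets higher and 4 lower, among them Fosb (adjusted p = 0.00101) and Rps15a (adjusted p = 0.000813).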

Other observations

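The vehicle arrays of set I were unlike each other for several bright genes, all chosen after their values were seen. Pcsk1n, which encodes a granule protease inhibitor precursor, read 1277 in vehicle 1, 8469 in vehicle 2, 5442 in GnRH 1 and 5617 in GnRH 2. The growth-arrest gene Gadd45g read 1093 and 3873 with vehicle and 2019 and 1547 with GnRH, and Gadd45b read 1074 and 2921 against 2157 and 1802. In all 3 genes the GnRH arrays lay between the vehicle arrays. Uqcrc1, a subunit gene of respiratory complex III, read 3099 and 9740 against 3088 and 3282, so that vehicle 2 alone was high. Of the 41 ribosomal protein genes, 25 were lowest in vehicle 1, as were 35 of 62 oxidative phosphorylation genes, beside 27.9% of all probe sets.

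A further 3 of the 16 probe sets called with the same sign in both vehicle omissions were also chosen after their values were seen. Srrm2, a splicing factor gene, read 351 and 349 with vehicle and 1137 and 930 with GnRH, while another probe set of it differed by -0.26. Kmt2a, a histone methyltransferase gene, read 713 and 629 against 141 and 118, and its other probe sets differed by -0.29 and 0.21. U2af1, a splice site recognition factor gene, read 5315 and 5418 against 2742 and 2489. For Srrm2 and Kmt2a the probe sets of 1 gene thus gave different differences.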
